A study of Homo sapiens with 6 samples.

Results

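The 6 solute carrier families SLC1, SLC3, SLC7, SLC36, SLC38 and SLC43 hold many of the proteins that move amino acids across the plasma membrane and the lysosomal membrane. Their transcripts were followed in A375 cells, an established human melanoma line, after BMH-21. Members were every gene symbol of the deposited values made of one of these family names, the letter A and a number, which gave 38 of 25662 genes. BMH-21 binds DNA and blocks transcription by RNA polymerase I. One group of cells had received BMH-21 at 1 µM for 24 hours, and the other DMSO, the solvent. Sample titles place the controls at 0 hours, and how long those cells were cultured with DMSO is not stated. Each group had 3 libraries that the submitters call biological replicates, and nothing more is given on whether these came from separate cultures, so p-values measure the spread between these libraries.

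Amino acid transporters work as exchangers, as uptake systems driven by sodium or protons, and as facilitators. Several SLC7 proteins are light chains that do the transport, and they reach the cell surface only when bound to a heavy chain of the SLC3 family. SLC7A5 with SLC3A2 takes up leucine and other large neutral amino acids in exchange for glutamine, which enters cells in part through SLC1A5, and both systems are widely expressed in tumour cells. At the lysosome, other members release amino acids or report their level to the growth kinase complex mTORC1.

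Values are TPM, a transcript abundance per length that is scaled to the same total in each library, so levels can be compared between genes. TPM keeps no read totals, and the depth behind each value is unknown. Of the 38 members, 21 had a mean of at least 1 TPM over the 6 libraries and were tested, with 12481 genes tested in all. Of those 21, 19 reached 1 TPM in both group means. The other 2, SLC38A3 and SLC7A2, passed through the controls alone, where they were higher. Per-library values are in the order of replicates 1 to 3, ± is the SD of 3 libraries for TPM and the standard error for a log2 change, and log2 changes are differences in mean log2(TPM + 1), BMH-21 minus control. The adjusted p-values are Benjamini-Hochberg values from limma over all tested genes, with a call under 0.05. Over all genes tested, the median difference was 0.19 on this scale, against which single changes are to be read.

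Control replicate 2 stood apart from the other controls. It was the lowest of the 3 controls in 18 of the 21 tested members, and its median-of-ratios size factor was 0.851, against 0.988 to 0.992 in the other controls and 1.055 to 1.083 in the BMH-21 libraries. Results that it decides are given with and without it. The melanoma markers SOX10 and MIA were abundant, with 635, 714 and 614 TPM of SOX10 in the BMH-21 libraries, against 631, 397 and 594 TPM in the controls. Of 8 tested melanoma markers, 3 were called higher (37.5%) and none lower, where 23.3% and 12.9% of all tested genes were. S100B was at 111 ± 0.724 TPM with BMH-21 and 77.5 ± 2.71 TPM in controls, and S100A1 at 411 ± 9.92 TPM with BMH-21 and 317 ± 29.7 TPM in controls (n = 3 each, adjusted p = 0.00171 and 0.0134). The pigment cell marker PMEL was at 1.70 ± 0.0995 TPM with BMH-21 and 0.809 ± 0.223 TPM in controls (n = 3 each, adjusted p = 0.0186), and it passed the filter only through the BMH-21 libraries. The other pigment cell markers MLANA, TYR, TYRP1 and DCT stayed below 0.5 TPM in every library. Of 14 markers of leukocytes, epithelium, keratinocytes, endothelium and fibroblasts, 4 were tested, and LYZ and DCN were called higher. LYZ was at 9.39 ± 1.23 TPM with BMH-21 and 2.69 ± 0.106 TPM in controls, and DCN at 10.6 ± 1.37 TPM with BMH-21 and 0.597 ± 0.263 TPM in controls (n = 3 each), so that DCN passed the filter only through the BMH-21 libraries. KRT14 and PDGFRB, the other tested markers, were not called. KRT14 was at 3.67 ± 0.711 TPM with BMH-21 and 3.54 ± 1.44 TPM in controls, and PDGFRB at 2.27 ± 0.291 and 2.81 ± 0.707 TPM in the same order (n = 3 each). The summed level of the 14 markers, LYZ and DCN included, was 25.9 to 30.4 TPM in the BMH-21 libraries, against 11.8 to 12.3 TPM in the controls. Of the markers under the filter, CD3E did not exceed 0.0721 TPM in any library. EPCAM reached 1.54 TPM in control replicate 1 and PECAM1 1.08 TPM in control replicate 3. The part of these marker transcripts in the changes below was not tested. In bulk RNA, fewer cells with a transcript and less of it per cell cannot be told apart.

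Members moved in both directions. Among the 21 tested, 10 rose (47.6%) and 6 fell (28.6%), 76.2% in all, where 23.3% of the tested genes were called higher and 12.9% lower, 36.2% in all. In 19 of the 21 the groups did not overlap, as they did not in 52.3% of all tested genes. The median log2 change of the 21 was 0.48, where that of all tested genes was 0.19. Without control replicate 2 these medians were 0.30 and 0.12. SLC3A2, SLC7A5, SLC7A6, SLC1A4, SLC38A1, SLC38A6, SLC38A7, SLC38A9, SLC36A1 and SLC43A2 rose. SLC1A1, SLC1A5, SLC7A1, SLC38A3, SLC43A1 and SLC43A3 fell. SLC38A3 had to be lower with BMH-21 to pass the filter as it did, and among the 19 members at 1 TPM or more in both group means 10 rose and 5 fell. With median-of-ratios scaling or quantile normalization 9 members rose and 8 fell. The 8 include SLC38A3 and SLC7A2, which passed the filter through the controls alone. Of the 12481 tested genes, 1928 rose and 2362 fell with median-of-ratios scaling, and 2316 rose and 2228 fell with quantile normalization. Of all calls, 64.4% were higher as deposited, 44.9% with median-of-ratios scaling and 51.0% with quantile normalization. The median of all tested genes was 0.03 with median-of-ratios scaling, where that of the 21 members was 0.29.

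**Figure D1:**
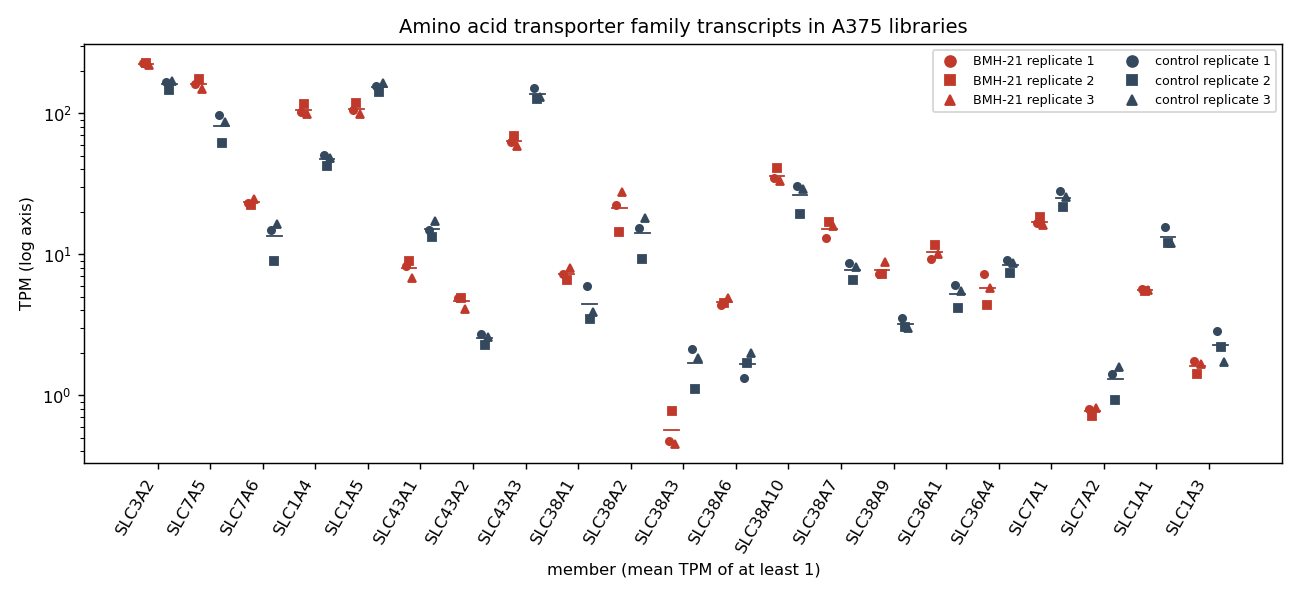
TPM on a log axis of the 21 members with a mean of at least 1 TPM, with BMH-21 libraries in red to the left of controls in dark blue, a symbol for each replicate number and a line at each group mean. SLC1A4 stands at 98.0 to 116 TPM with BMH-21 and 42.5 to 50.8 TPM in controls, and control replicate 2 (square) is the lowest control in 18 of the 21.

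The heavy chain SLC3A2, also known as CD98, was the member with the highest mean in both groups. It was at 227, 226 and 219.6 TPM in the BMH-21 libraries, against 167, 145 and 170.4 TPM in the controls. All BMH-21 values lay above all controls, within a narrow range, and the rise was 1.39-fold (log2 change 0.48 ± 0.09, adjusted p = 0.00436). Its gene lies on chromosome 11 (62856102 to 62888875, + strand; gene positions are those of GENCODE 29 on GRCh38). The other heavy chain, SLC3A1, which in kidney carries cystine transport, did not exceed 0.247 TPM in any library, and SLC7A9, its light chain, did not exceed 0.0782 TPM.

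SLC7A5, the LAT1 light chain for large neutral amino acids, was at 160.3, 175 and 148 TPM in the BMH-21 libraries, against 96.4, 62.0 and 87.1 TPM in the controls. Each BMH-21 library lay above every control, with control replicate 2 the lowest, and the ratio of means was 1.97 (log2 change 0.99 ± 0.16, adjusted p = 0.00242). Without control replicate 2 its log2 change was 0.81 and the call remained. SLC7A5 lies on chromosome 16 (87830023 to 87869488, - strand). SLC7A6, the y+LAT2 light chain that exchanges cationic for neutral amino acids, had 23.2, 22.4 and 24.5 TPM in the BMH-21 libraries, against 14.9, 8.96 and 16.5 TPM in the controls (log2 change 0.79 ± 0.21, adjusted p = 0.0188). The groups did not overlap, but without BMH-21 replicate 1 or 3 the adjusted p was 0.0590 or 0.0610. SLC7A6 shares 3371 of its 7588 annotated exonic bases with SLC7A6OS on the opposite strand, at a mean of 8.74 TPM, and whether the counting used strand is not given in the sources used here, so reads of these genes may be mixed.

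The remaining SLC3A2-bound light chains were scarce. SLC7A11, the xCT light chain that imports cystine in exchange for glutamate and a known target of ATF4 and NRF2, was at 0.835, 0.821 and 0.983 TPM in the BMH-21 libraries, against 0.626, 0.739 and 0.589 TPM in the controls. With a mean under 1 TPM it was not tested, although its BMH-21 values were all above its controls. SLC7A7, the y+LAT1 chain, had 0.670, 1.04 and 1.09 TPM in the BMH-21 libraries, against 0.578, 0.475 and 0.893 TPM in the controls, and those groups overlapped. SLC7A8, the LAT2 chain, stayed at or below 0.505 TPM and SLC7A10 at or below 0.0755 TPM. These values lie just outside the limit of 1 TPM in the case of SLC7A7 and SLC7A11, with means of 0.792 and 0.765 TPM over 6 libraries. SLC7A2 and SLC38A3, with means of 1.05 and 1.13 TPM, lie just inside it.

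Light chains and heavy chain differed unequally. The ratio of SLC7A5 to SLC3A2 was 0.706, 0.776 and 0.675 in the BMH-21 libraries, against 0.576, 0.427 and 0.511 in the controls. Summed over SLC7A5, SLC7A6, SLC7A7, SLC7A8, SLC7A10 and SLC7A11, the light chain TPM per SLC3A2 TPM was 0.817, 0.885 and 0.797 with BMH-21, against 0.675, 0.4996 and 0.618 in controls. For SLC7A6 the ratio to SLC3A2 was 0.102, 0.0991 and 0.111 with BMH-21 and 0.0892, 0.0618 and 0.0967 in controls. The 3 ratios were higher in every BMH-21 library than in any control, by 0.52 for SLC7A5, 0.49 for the sum and 0.36 for SLC7A6 on the log2 scale. A ratio within a library does not depend on library scaling. The exact two-sided permutation test over libraries gave p = 0.1 for each, the smallest that 3 against 3 allows, and 0.143 after Benjamini-Hochberg adjustment over the 10 ratios compared. With both number 2 libraries left out the differences were 0.35 for SLC7A5 and 0.32 for the sum. Without control replicate 2 that of SLC7A6 was 0.16.

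The neutral amino acid exchangers SLC1A4 and SLC1A5 moved in opposite directions. SLC1A4, or ASCT1, exchanges alanine, serine, cysteine and threonine, and it was at 102, 116 and 98.0 TPM in the BMH-21 libraries, against 50.8, 42.5 and 48.5 TPM in the controls. Every BMH-21 library lay above every control, with a ratio of means of 2.22 (log2 change 1.14 ± 0.11, adjusted p = 0.000143). SLC1A5, or ASCT2, also carries glutamine, and it was at 105, 118 and 99.5 TPM in the BMH-21 libraries, against 156, 142 and 163 TPM in the controls. Here every BMH-21 library lay below every control, with a ratio of means of 0.701 (log2 change -0.51 ± 0.10, adjusted p = 0.00522). Both calls held under each of the 15 alternatives to the model, scaling, filter and libraries.

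The ratio of SLC1A4 to SLC1A5 was 0.969, 0.979 and 0.985 in the BMH-21 libraries, against 0.326, 0.2999 and 0.298 in the controls. Both transcripts were thus at nearly the same level after BMH-21, and within each group the ratio varied little. The difference was 1.67 on the log2 scale, between 1.64 and 1.71 with any single library left out (exact permutation p = 0.1, adjusted 0.143). The SLC1 family as a whole, to which these genes give most, came to 214, 240.4 and 205 TPM with BMH-21 and 225, 198 and 225 TPM in controls, which overlapped (exact permutation p = 0.9). SLC1A4 lies on chromosome 2 (64988477 to 65023865, + strand) and SLC1A5 on chromosome 19 (46774883 to 46788594, - strand). SLC1A5 shares 780 of 3332 exonic bases with an annotated gene on the opposite strand.

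**Figure D2:**
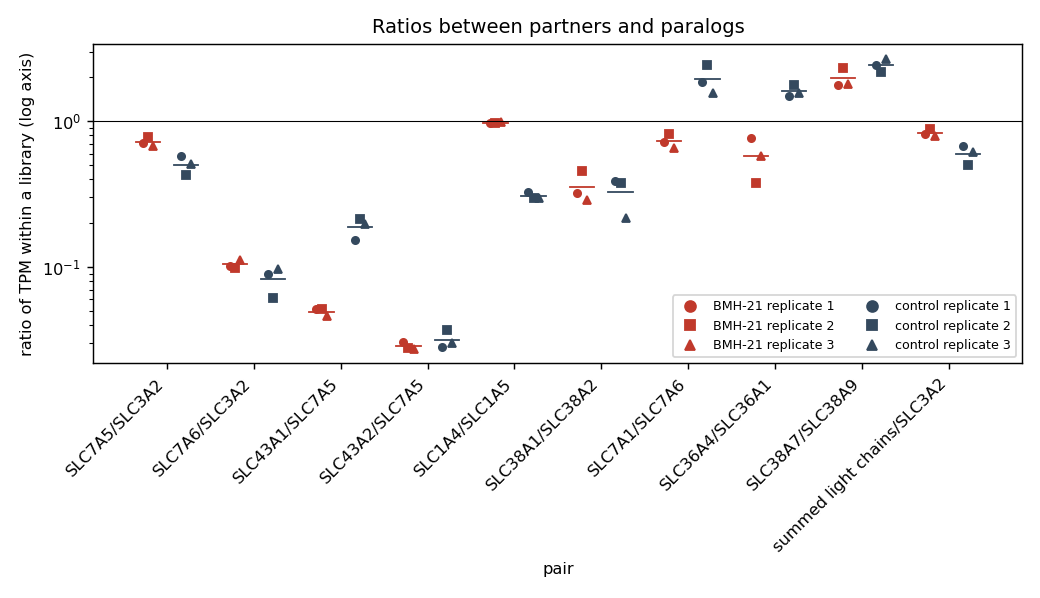
Ratio of TPM between pairs of genes within each library, on a log axis, with BMH-21 libraries in red to the left of controls in dark blue, a symbol for each replicate number and a line at each group mean. SLC1A4 over SLC1A5 is at 0.969 to 0.985 with BMH-21 and 0.298 to 0.326 in controls, while SLC43A2 over SLC7A5 overlaps between the groups.

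The glutamate transporters of the SLC1 family take up glutamate and aspartate with sodium. SLC1A1, or EAAT3, which also carries cysteine, was at 5.66, 5.47 and 5.58 TPM in the BMH-21 libraries, against 15.6, 12.0 and 12.0 TPM in the controls. Its BMH-21 values were nearly identical and below every control (log2 change -1.10 ± 0.15, adjusted p = 0.000899). SLC1A3, or EAAT1, had 1.75, 1.41 and 1.66 TPM in the BMH-21 libraries, against 2.86, 2.19 and 1.72 TPM in the controls, with overlapping groups and no call (adjusted p = 0.194). SLC1A2 and SLC1A6 were listed at 0 in all 6 libraries, and SLC1A7 did not exceed 0.0215 TPM.

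SLC43 transcripts were split. SLC43A1, or LAT3, lets branched-chain amino acids and phenylalanine cross the plasma membrane without an ion gradient, and it was at 8.21, 8.999 and 6.83 TPM in the BMH-21 libraries, against 14.8, 13.3 and 17.2 TPM in the controls (log2 change -0.83 ± 0.15, adjusted p = 0.00432). SLC43A2, or LAT4, with similar substrates, was at 4.92, 4.91 and 4.07 TPM in the BMH-21 libraries, against 2.71, 2.28 and 2.61 TPM in the controls (log2 change 0.67 ± 0.15, adjusted p = 0.00986). The groups were separate for both, in opposite directions, and the call of SLC43A2 was lost without BMH-21 replicate 1 (adjusted p = 0.0560). SLC43A3 is known as a carrier of purine nucleobases rather than amino acids, and it was at 62.1, 68.6 and 58.7 TPM in the BMH-21 libraries, against 152, 126 and 130.1 TPM in the controls (log2 change -1.09 ± 0.11, adjusted p = 0.000173). It was the third most abundant member in controls, with a ratio of means of 0.465. SLC43A1 (57484534 to 57515786) and SLC43A3 (57406954 to 57427580), the members of this family that fell, are near each other on the - strand of chromosome 11, while SLC43A2 is on chromosome 17. SLC43A3 shares 1349 of its 4517 exonic bases with an annotated gene on its own strand.

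Set against SLC7A5, which shares substrates with them, SLC43A1 was at 0.0512, 0.0513 and 0.0461 of its level in the BMH-21 libraries and 0.153, 0.214 and 0.197 in the controls. That ratio did not overlap between groups (difference -1.91 on the log2 scale, exact permutation p = 0.1, adjusted 0.143). For SLC43A2 the ratio was 0.0307, 0.0280 and 0.0275 with BMH-21 and 0.0281, 0.0368 and 0.0300 in controls, which overlapped (difference -0.13, exact permutation p = 0.4).

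Uniporters for cationic amino acids were lower or near the limit. SLC7A1, the CAT1 transporter that supplies most cells with arginine and lysine, was at 16.7, 18.4 and 16.04 TPM in the BMH-21 libraries, against 27.9, 21.8 and 25.6 TPM in the controls (log2 change -0.53 ± 0.13, adjusted p = 0.0139). Every BMH-21 value lay below every control, and the call was lost without BMH-21 replicate 1 or 3 (adjusted p = 0.0624 and 0.0609). SLC7A2, the CAT2 transporter, had 0.806, 0.718 and 0.817 TPM in the BMH-21 libraries, against 1.42, 0.932 and 1.59 TPM in the controls (adjusted p = 0.106). It passed as lower with median-of-ratios scaling (adjusted p = 0.0424), with quantile normalization (0.0193) and without control replicate 2 (0.0360). The ratio of SLC7A1 to SLC7A6, each a carrier of cationic amino acids, was 0.720, 0.821 and 0.656 in the BMH-21 libraries, against 1.87, 2.43 and 1.55 in the controls. SLC7A1 was thus the more abundant of the pair in every control and the less abundant in every BMH-21 library (exact permutation p = 0.1, adjusted 0.143). The level of SLC7A6 may hold reads of SLC7A6OS, as given above, so the order within the pair is uncertain. SLC7A3, SLC7A4 and SLC7A14 did not exceed 0.127 TPM.

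Among sodium-coupled neutral amino acid transporters of the SLC38 family, SLC38A6 had the largest log2 change, with SLC38A9 next. SLC38A6, whose substrates are less settled, was at 4.35, 4.48 and 4.94 TPM in the BMH-21 libraries, against 1.32, 1.69 and 1.997 TPM in the controls. Its ratio of means was 2.75 (log2 change 1.07 ± 0.16, adjusted p = 0.00152). SLC38A1, or SNAT1, a glutamine uptake system, was at 7.20, 6.55 and 7.95 TPM in the BMH-21 libraries, against 5.95, 3.49 and 3.92 TPM in the controls. Its groups were separate but its call was weak (adjusted p = 0.0387) and held under 5 of 15 alternatives. SLC38A1 lost the call with median-of-ratios scaling (adjusted p = 0.0624), with quantile normalization (0.0530), without control replicate 2 (0.0701) or 3 (0.114) and without any BMH-21 library (0.0528 to 0.127). SLC38A2, or SNAT2, which cells induce when starved of amino acids, had 22.4, 14.3 and 27.6 TPM in the BMH-21 libraries, against 15.4, 9.24 and 17.9 TPM in the controls. Those groups overlapped and the spread was wide in both (log2 change 0.56 ± 0.28, adjusted p = 0.154), with the lowest value of each group in replicate 2. Without BMH-21 replicate 2 it passed as higher (0.82, adjusted p = 0.0464), as it did without both number 2 libraries (0.56, adjusted p = 0.0174), and without control replicate 2 its log2 change was 0.30 (adjusted p = 0.375).

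SLC38A10, the most abundant SLC38 member, was at 34.5, 40.7 and 33.1 TPM in the BMH-21 libraries, against 30.5, 19.3 and 29.2 TPM in the controls, and although the groups did not overlap it did not pass (adjusted p = 0.0765). SLC38A3, or SNAT3, which exchanges glutamine with protons, was at 0.473, 0.775 and 0.453 TPM in the BMH-21 libraries, against 2.13, 1.12 and 1.83 TPM in the controls. Having passed the filter through the controls alone, it was lower with BMH-21 (log2 change -0.77 ± 0.19, adjusted p = 0.0150), which did not pass when BMH-21 replicate 1 or 3 was left out (adjusted p = 0.0593 and 0.0573). SLC38A4, SLC38A5, SLC38A8 and SLC38A11 did not exceed 0.373 TPM. SLC38A1 (46183063 to 46270017) and SLC38A2 (46358189 to 46372867) are neighbours on the - strand of chromosome 12.

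The 3 members best known from lysosomes rose. SLC38A9 binds lysosomal arginine and signals it to mTORC1, and it was at 7.29, 7.27 and 8.77 TPM in the BMH-21 libraries, against 3.56, 3.03 and 3.02 TPM in the controls (log2 change 1.06 ± 0.15, adjusted p = 0.00120). SLC38A7, which exports glutamine and asparagine from lysosomes, was at 13.0, 16.9 and 15.8 TPM in the BMH-21 libraries, against 8.61, 6.54 and 8.14 TPM in the controls (log2 change 0.89 ± 0.16, adjusted p = 0.00349). SLC36A1, or PAT1, which moves small neutral amino acids out with protons, was at 9.33, 11.6 and 9.97 TPM in the BMH-21 libraries, against 6.09, 4.18 and 5.51 TPM in the controls (log2 change 0.86 ± 0.17, adjusted p = 0.00563). In these 3 genes every BMH-21 value was above every control, the ratios of means ran from 1.96 to 2.43, and each was called under all 15 alternatives.

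SLC36A4, a carrier of proline and tryptophan in the same family as SLC36A1, differed from it. It was at 7.19, 4.39 and 5.73 TPM in the BMH-21 libraries, against 9.13, 7.38 and 8.62 TPM in the controls, with groups that did not overlap and no call (adjusted p = 0.0717). With median-of-ratios scaling it passed as lower (adjusted p = 0.0143), as with quantile normalization (0.0110). The ratio of SLC36A4 to SLC36A1 was 0.771, 0.378 and 0.575 with BMH-21 and 1.499, 1.76 and 1.57 in controls, so that SLC36A4 was the more abundant of these in each control and the less abundant in each BMH-21 library (exact permutation p = 0.1, adjusted 0.143). SLC36A2 did not exceed 0.0756 TPM.

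**Figure D3:**
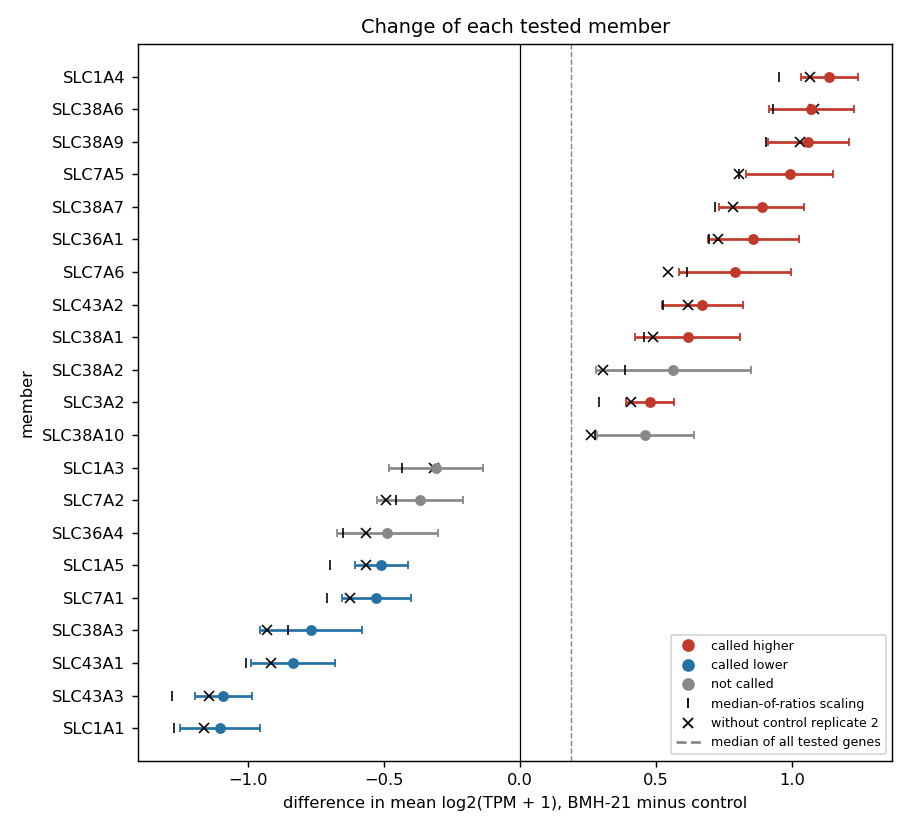
Difference in mean log2(TPM + 1), BMH-21 minus control, for the 21 tested members, with bars of 1 standard error, bars and points coloured by call, and black marks for the value with median-of-ratios scaling or without control replicate 2. SLC1A4 is at 1.14 and SLC1A1 at -1.10, and no member changes sign under either alternative.

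The 10 ratios included 3 whose groups overlapped, SLC43A2 to SLC7A5, SLC38A1 to SLC38A2 and SLC38A7 to SLC38A9. SLC38A1 was at 0.321, 0.459 and 0.288 of SLC38A2 with BMH-21 and 0.388, 0.378 and 0.219 in controls (exact permutation p = 0.7). SLC38A7 was at 1.79, 2.32 and 1.80 times SLC38A9 with BMH-21 and 2.42, 2.16 and 2.70 in controls (exact permutation p = 0.2).

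Summed over all 38 members, the transporters came to 826, 875 and 800.3 TPM in the BMH-21 libraries and 787, 636 and 759 TPM in the controls, which did not overlap (exact permutation p = 0.1). With median-of-ratios scaling the difference of 0.20 on the log2 scale was 0.0127, and without control replicate 2 it was 0.11. The make-up differed more than the total. The SLC43 family held 9.07% of the sum with BMH-21 and 21.1% in controls on average, and its summed level was 75.2, 82.5 and 69.6 TPM with BMH-21, against 169, 141 and 149.9 TPM in controls. Most of it was SLC43A3, known as a carrier of purine nucleobases. That gene had means of 63.1 TPM with BMH-21 and 136 TPM in controls, of family means of 75.8 and 153 TPM. The total and all shares include it. SLC7 members held 24.5% with BMH-21 and 16.9% in controls, and SLC3 members 26.9% and 22.2% in the same order. For SLC38 the shares were 11.2% with BMH-21 and 8.14% in controls. The SLC1 family was at 26.3% with BMH-21 and 29.8% in controls, and the SLC36 family held 1.82 to 2.001% in every library.

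**Figure D4:**
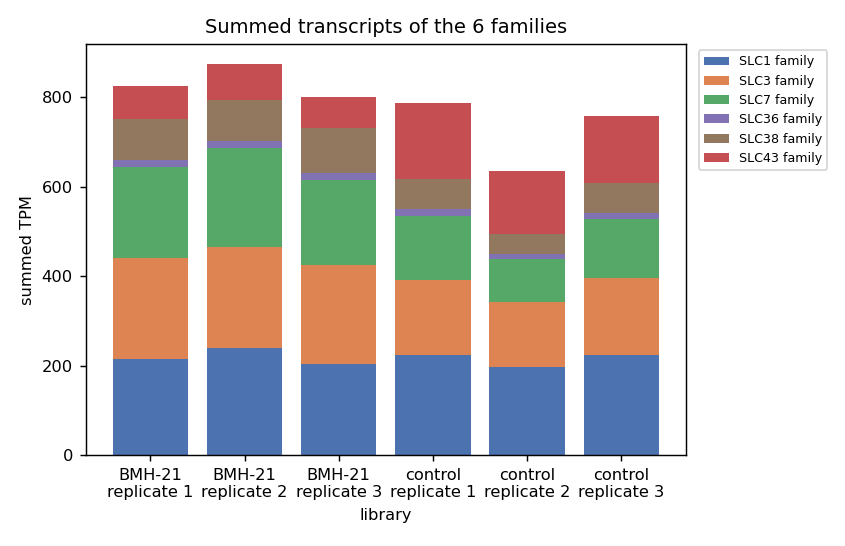
Summed TPM of the 6 families in each library, stacked, with the 3 BMH-21 libraries left of the 3 controls. Totals run from 800.3 to 875 TPM with BMH-21 and from 636 to 787 TPM in controls, and the SLC43 part is 69.6 to 82.5 TPM with BMH-21 and 141 to 169 TPM in controls.

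Promoter sequences of members were searched for the letters TGATGNAA on both strands, the core of the element that ATF4 and C/EBP proteins bind in amino acid response genes. RefSeq windows of 250 bases before to 50 bases after a start (GRCh38.p14) were at hand for 30 of the 38 members, 52 windows in all, several per gene and some overlapping. A match lay in 6 of the 52 (11.5%), 1 each in 6 members, and in 3.62% of all 35116 windows. The 6 matches are shown with 30 bases each. Of the 6 members, 5 were called, SLC1A4, SLC3A2 and SLC38A1 as higher and SLC1A5 and SLC7A1 as lower. Among all tested members 76.2% were called, and a link between match and call was not tested. Capitals mark the match, which reads on the opposite strand in SLC1A4 and SLC3A2.
SLC1A4: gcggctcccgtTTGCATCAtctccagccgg
SLC3A2: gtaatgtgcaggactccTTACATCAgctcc
SLC38A1: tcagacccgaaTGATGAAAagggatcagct
SLC1A5: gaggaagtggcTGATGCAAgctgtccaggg
SLC7A1: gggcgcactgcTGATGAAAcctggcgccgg
SLC1A3: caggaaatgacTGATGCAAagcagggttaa

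These stretches are SLC1A4 at chr2:64989381-64989410 (+ strand), SLC1A3 at chr5:36596357-36596386 (+), SLC3A2 at chr11:62881719-62881748 (+), SLC38A1 at chr12:46266502-46266531 (-), SLC7A1 at chr13:29595663-29595692 (-) and SLC1A5 at chr19:46784893-46784922 (-). The RefSeq starts of these SLC1A4, SLC3A2, SLC38A1 and SLC1A5 windows lie inside the gene as GENCODE 29 annotates it, and that of SLC1A3 lies before it. A match is a description of letters and not of a bound site. The letters TGANNNNGC, the core of the antioxidant response element, were searched likewise and are in 26 of the 52 member windows and in 41.8% of all windows.

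Genes of amino acid handling outside the 6 families gave the setting of these changes. Of 9 tested amino acid and peptide transporters of other families, 4 rose (44.4%) and none fell (median log2 change 0.31). Over all tested genes 23.3% rose and 12.9% fell. MFSD12, which lets cysteine enter lysosomes and melanosomes, was far the most abundant at 403, 456 and 371 TPM in the BMH-21 libraries, against 262, 176 and 253 TPM in the controls (log2 change 0.85 ± 0.16, adjusted p = 0.00476). SLC17A5 is a lysosomal exporter of sialic acid and also a carrier of acidic amino acids. It was at 5.79, 5.93 and 6.03 TPM in the BMH-21 libraries, against 2.86, 2.86 and 2.23 TPM in the controls (log2 change 0.93 ± 0.15, adjusted p = 0.00218). SLC66A1, a lysosomal exporter of cationic amino acids, and the glycine transporter SLC6A9 rose too (adjusted p = 0.00750 and 0.0299), but the call of SLC6A9 was lost under 8 of 15 alternatives, with any BMH-21 library or control replicate 3 left out among them (0.0528 to 0.1005).

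Genes of amino acid sensing at the lysosome and of mTORC1 control were called higher about as often as genes in general. Of 33 tested, 7 rose (21.2%, where 23.3% of all tested genes did) and 2 fell (6.06%, against 12.9%), with a median of 0.21. Only 1 fell without BMH-21 replicate 1 or 3 or control replicate 3. SESN1, a sestrin that restrains mTORC1, was at 16.3 ± 0.283 TPM with BMH-21 and 3.07 ± 0.713 TPM in controls (n = 3 each, log2 change 2.10 ± 0.16, adjusted p = 5.3e-05). ITFG2, a subunit of the KICSTOR scaffold, fell, with 9.85 ± 0.892 TPM with BMH-21 and 19.5 ± 5.07 TPM in controls (n = 3 each, adjusted p = 0.00963). LAMTOR5, of the Ragulator complex that SLC38A9 binds, was the most abundant at 281 ± 26.1 TPM with BMH-21 and 266 ± 35.2 TPM in controls (n = 3 each, adjusted p = 0.605). Without both number 2 libraries LAMTOR5 passed as higher (log2 change 0.27, adjusted p = 0.0213).

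The amino acid response list went both ways. Among 29 tested regulators and targets of ATF4, 10 rose (34.5%) and 7 fell (24.1%), with a median of 0.12. Over all tested genes 23.3% rose and 12.9% fell. Without BMH-21 replicate 1, 6 of the list rose. ATF4 itself was at 191, 190.5 and 188 TPM in the BMH-21 libraries, against 219.6, 188 and 206 TPM in the controls (adjusted p = 0.358), and those groups overlapped. With median-of-ratios scaling ATF4 passed as lower (log2 change -0.29, adjusted p = 0.0310). CHAC1, which degrades glutathione, had 2.83, 3.13 and 3.28 TPM in the BMH-21 libraries, against 1.49, 0.907 and 1.13 TPM in the controls (log2 change 0.91 ± 0.16, adjusted p = 0.00338), and ASNS, the asparagine synthetase, 15.0, 17.4 and 14.3 TPM in the BMH-21 libraries, against 30.2, 29.6 and 23.7 TPM in the controls (log2 change -0.79 ± 0.14, adjusted p = 0.00314). These known ATF4 targets moved in opposite directions. The largest changes of the list were a rise of the transcription factor ATF3 and a fall of PHGDH (log2 change 1.68 and -2.33). PHGDH, which starts serine synthesis, was at 84.3, 75.6 and 74.3 TPM in the BMH-21 libraries, against 352, 393 and 444 TPM in the controls. The most abundant gene of the list, SHMT2, which turns serine into glycine in mitochondria, fell as well, with 189 ± 4.42 TPM with BMH-21 and 369 ± 38.5 TPM in controls (n = 3 each, adjusted p = 0.000202).

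Enzymes that use glutamine, cysteine, arginine or branched-chain amino acids were split. Of 30 tested, 4 rose (13.3%) and 9 fell (30%), where 23.3% and 12.9% of all tested genes did, and the median was -0.06. GLUD2, 1 of the 4, was named after its values were seen, since it passed the filter only through the BMH-21 libraries, and 3 rose among the 29 genes at 1 TPM or more in both group means. CBS, which makes cystathionine from homocysteine and serine, was at 5.89, 6.48 and 5.56 TPM in the BMH-21 libraries, against 16.5, 14.2 and 22.8 TPM in the controls (log2 change -1.41 ± 0.18, adjusted p = 0.000802). CBS is counted in the amino acid response list too, and a few other genes are also in more than 1 list, so the lists' counts are not separate. GPX4, the peroxidase that protects lipids with glutathione, was the most abundant at 129 ± 4.84 TPM with BMH-21 and 250.3 ± 24.5 TPM in controls (n = 3 each, adjusted p = 0.000205).

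Of 19 tested partners and regulators of these transporters, 7 rose (36.8%) and 3 fell (15.8%), with a median of 0.25. Over all tested genes the shares were 23.3% and 12.9%. ARRDC4, 1 of the 7, likewise passed only through the BMH-21 libraries, and 6 rose and 3 fell among the 17 genes at 1 TPM or more in both group means. Without BMH-21 replicate 1, or without BMH-21 replicate 3, 3 rose and 1 fell, and 4 rose without BMH-21 replicate 2 or control replicate 3. With median-of-ratios scaling 3 of the 19 rose and 4 fell, where 1928 and 2362 of the 12481 tested genes did. With quantile normalization 4 rose and 3 fell, where 2316 and 2228 of all tested genes did. TXNIP, an arrestin-like inhibitor of nutrient uptake, was at 119, 123 and 129.8 TPM in the BMH-21 libraries, against 52.9, 52.8 and 53.4 TPM in the controls (log2 change 1.21 ± 0.08, adjusted p = 2.74e-05). MYC, a transcription factor known to raise SLC7A5 and SLC1A5, was at 8.56, 8.40 and 8.18 TPM in the BMH-21 libraries, against 15.7, 10.3 and 11.4 TPM in the controls (adjusted p = 0.0485), a call lost with any library other than control replicate 2 left out (0.0842 to 0.130). Basigin (BSG), the most abundant of the list, fell, with 453 ± 19.8 TPM with BMH-21 and 575 ± 40.9 TPM in controls (n = 3 each, adjusted p = 0.0158), which did not pass without BMH-21 replicate 1 (0.0797) or 3 (0.0764). NFE2L2, which encodes NRF2, was not called (adjusted p = 0.261).

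**Figure D5:**
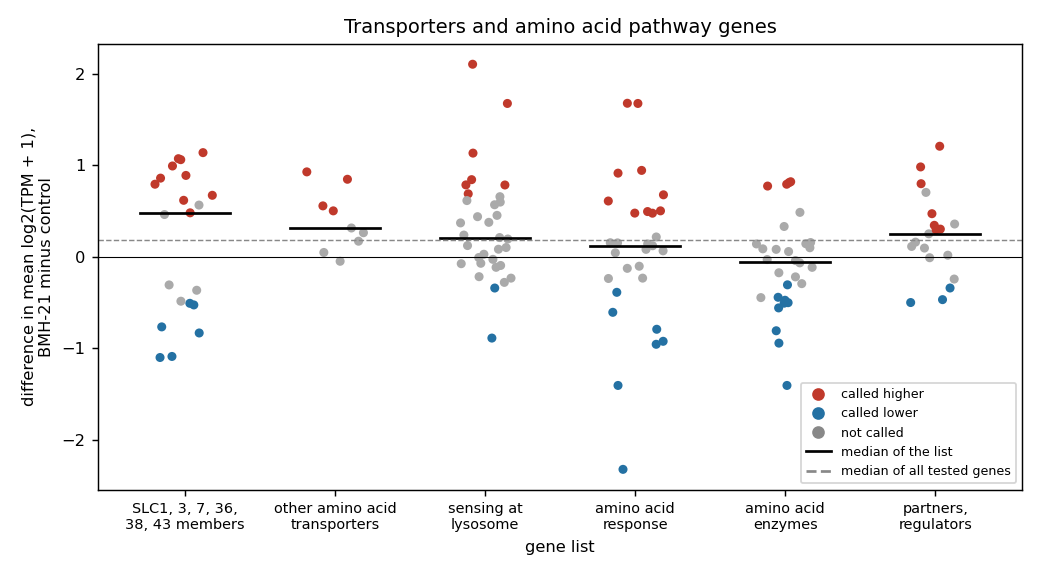
Difference in mean log2(TPM + 1), BMH-21 minus control, of each tested gene in the transporter families and 5 lists of amino acid pathway genes, coloured by call, with a black line at each list's median and a dashed line at 0.19 for the median over every gene tested. The medians run from -0.06 for amino acid enzymes to 0.48 for the 21 tested members.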

How the data were processed

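RNA was extracted with Trizol and depleted of ribosomal RNA with Ribo-Zero, per the labels' protocols, while the labels call the molecule polyA RNA. The authors deposited TPM per gene symbol for all 6 libraries. STAR, Salmon and GRCh38 are named, per the submitters' processing notes. The sources used here give no versions, annotation, strand setting or depth. Reads that match several similar sequences are divided among them by Salmon, so levels of close paralogs are uncertain.

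Log2(TPM + 1) of the 12481 genes with a mean of at least 1 TPM was fitted by group in limma 3.58.1 (R 4.3.3) with a variance trend, and p-values were adjusted by Benjamini-Hochberg over all tested genes. The script was tested on simulated data. Sums and ratios were tested by exact two-sided permutation of libraries. Of 13 gene ratios planned, 10 were compared, since the rest involve a gene under 1 TPM. Tried alternatives covered pseudocount, filter, scaling, variance trend, left-out libraries and a replicate block.

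The members and gene lists were chosen with earlier results of these data known. Every tested member is named, and from each list the called gene with the largest rise, the called gene with the largest fall, the most abundant gene, and ATF4, MYC, NFE2L2, ASNS and CHAC1. A few genes that this rule or the marker lists would name are not reported here. Per-library values of uncalled members below 20 TPM and of SLC7A11 and SLC7A7, and SLC66A1 and SLC6A9, were added after their values were seen. Protein sequences were not used here.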

Additional observations from a re-analysis of the deposited data

How the results depend on the processing

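The direction of every tested member and of every ratio whose groups did not overlap was the same under each alternative that gave a value, and 11 of the 16 called members were called under every alternative that tested them. Of the single-member results, 283 kept their side of the threshold, 18 lost a call and 9 gained one, and of those for named list genes 18 lost a call and 2 gained one. Among these only LAMTOR5, which was not called with all 6 libraries, changed sign, to -0.11 with median-of-ratios scaling. It gained a call as higher without both number 2 libraries. Median-of-ratios scaling gave a members' median of 0.29, and family differences of -0.17 (SLC1), 0.29 (SLC3), 0.0529 (SLC36), -1.21 (SLC43) and 0.0127 (all members), with 4 lysosomal sensing genes lower and 3 partners higher. Without a filter the members' median was 0.0239, over a larger set with the near-silent members, where that of all genes was 0.0533. In that setting 1 other transporter was lower. With means of at least 5 TPM, fewer genes were tested, and 4 sensing genes and 2 enzymes were higher. Quantile normalization and a fit without variance trend each left 4 partners higher. Without both number 2 libraries, 12 sensing genes were higher, and the differences were -0.10 (SLC1), 0.0733 (all members), 0.35 (SLC7A5 to SLC3A2), 0.32 (summed light chains) and -0.51 (SLC38A7 to SLC38A9). Leaving out 1 library gave medians of 0.30 to 0.58, 6 to 10 response genes higher, 1 to 2 sensing genes lower, 3 to 5 partners higher and 1 to 4 partners lower. Except where fewer genes or libraries entered, the cause was not tested.

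Same-numbered libraries showed no sign of pairing, with deviations from the group means that correlated at -0.04, -0.34 and -0.08. With 3 libraries a group this check cannot settle whether they were paired. With a replicate block 3223 genes were called, against 4519 without it, and 10 members were higher and 5 lower. SLC38A2 passed as higher with the block (adjusted p = 0.0321), while SLC38A1 (0.0605) and SLC7A1 (0.0531) did not pass, nor did BSG (0.0719), MYC (0.0838) and SLC6A9 (0.0783). The block left 1 sensing gene lower, 3 partners higher and 1 partner lower. TPM gives no read totals, so counting error could not be set, and 3 libraries a group allow no permutation p below 0.1.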

Other observations

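Among the near-silent members, low levels were unevenly spread between libraries. SLC3A1 had 0.247, 0.0577 and 0.0177 TPM in the BMH-21 libraries and was listed at 0 in all controls. It shares 1923 of its 6541 exonic bases with PREPL on the opposite strand, at a mean of 4.03 TPM, and 1761 with an annotated gene on its own strand, so reads may be mixed. SLC38A11 had 0.207, 0.0403 and 0 TPM in the BMH-21 libraries, against 0, 0 and 0 TPM in the controls. SLC7A3 had 0, 0 and 0 TPM in the BMH-21 libraries, against 0.0358, 0.0345 and 0.127 TPM in the controls. SLC38A5 had 0.152, 0 and 0.121 TPM in the BMH-21 libraries, against 0.205, 0.201 and 0.373 TPM in the controls. These genes were chosen after their values were seen, and with no depth in TPM no limit can be set on how few reads they rest on.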
